A study of Mus musculus with 4 samples.

Results

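ABC and organic ion transporters were examined in NSCL61 cells, a glioma-initiating line made from mouse neural stem cells, with and without a short hairpin RNA (shRNA) against Eva1. The genes were chosen by name alone: those whose symbol in the annotation of the array begins with Abca to Abcg, Slco, Slc22a or Slc47a and a number. The rule took 76 probes, each for a different gene, of 23473 probes (16390 named genes) on the array. Of these, 47 belonged to the ABC superfamily, 14 to the Slco family and 15 to the Slc22 family, and 0 to the Slc47 family under that annotation.

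ABC proteins bind and hydrolyse ATP on a shared nucleotide-binding domain, and most of them use that energy to move lipids, drugs, conjugates or metabolites across a membrane. Members of the ABCE and ABCF subfamilies have the ATP-binding domain but no membrane part, and act on ribosomes and translation. Slco and Slc22 proteins are carriers that do not hydrolyse ATP: the Slco family moves organic anions such as bile acids, steroid conjugates, thyroid hormone and prostaglandins, and the Slc22 family moves organic cations, organic anions and carnitine. In the brain these families are best known at the blood-brain barrier, and Abcg2 and Abcb1 are known from stem-like tumour cells that pump out dyes and drugs.

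The series held 4 arrays, 2 labelled as NSCL61 alone, taken as controls, and 2 of NSCL61 carrying the hairpin against Eva1; the title of the series also names a control hairpin. As background, the line was made from p53-deficient neural stem cells with oncogenic HRas, which both groups share. The strain is given as C57BL6, the tissue as brain and the stage as P0, the day of birth, and the source as mouse neural stem cells, for both groups. Per the labels, cells expressing the Eva1 shRNA were selected with hygromycin, for 2 weeks in the growth protocol and 1 week in the treatment protocol, and hygromycin is not mentioned for the control cells. NSCL61 is 1 cell line, and the labels do not tell whether the 2 arrays of each group hold RNA of different cultures. The p-values then reflect the spread among these samples alone, which may be technical. The question put to these genes was which of them differed in messenger RNA level when Eva1 was knocked down.

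Total RNA was measured on a 1-colour mouse chip. Values were deposited as linear intensities with a median near 25 on every array, and 20662 to 21842 probes had a value. The hairpin's target Mpzl2, the current name of Eva1, had intensities of 55.0 and 54.4 in the controls, and 8.20 and 6.21 with the hairpin. Log2 changes below are Eva1 shRNA minus control after quantile normalization, with the standard error of the fit, and "rose", "fell" and "called" mean an adjusted p under 0.05 (limma, two-sided, Benjamini-Hochberg over 13765 genes). Each control value and each shRNA value is a deposited intensity. The number of arrays limits the precision.

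Of the 76 transporter genes, 53 had a value on all 4 arrays and were tested, 22 were blank on 1 to 3 arrays and 1, Abca16, was blank on all 4. Among the tested genes 7 rose, 8 fell and 38 were not called. That is 28.3% called, against 26% of all genes tested (12.5% higher and 13.5% lower), so the share called among the transporters was near the background. The median change was -0.09 over the 53 genes and -0.01 over all genes. The largest changes were the rises of Slco3a1 and Abcc3, both from dim control values, and the fall of Slco2b1. In the brighter range, the exporter genes Abcc1 and Abcg2 fell while Abce1, Abcf2 and Abcf3 rose. Bulk RNA gives a mean over cells, so fewer cells with a transcript and less of it per cell cannot be told apart.

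**Figure D1:**
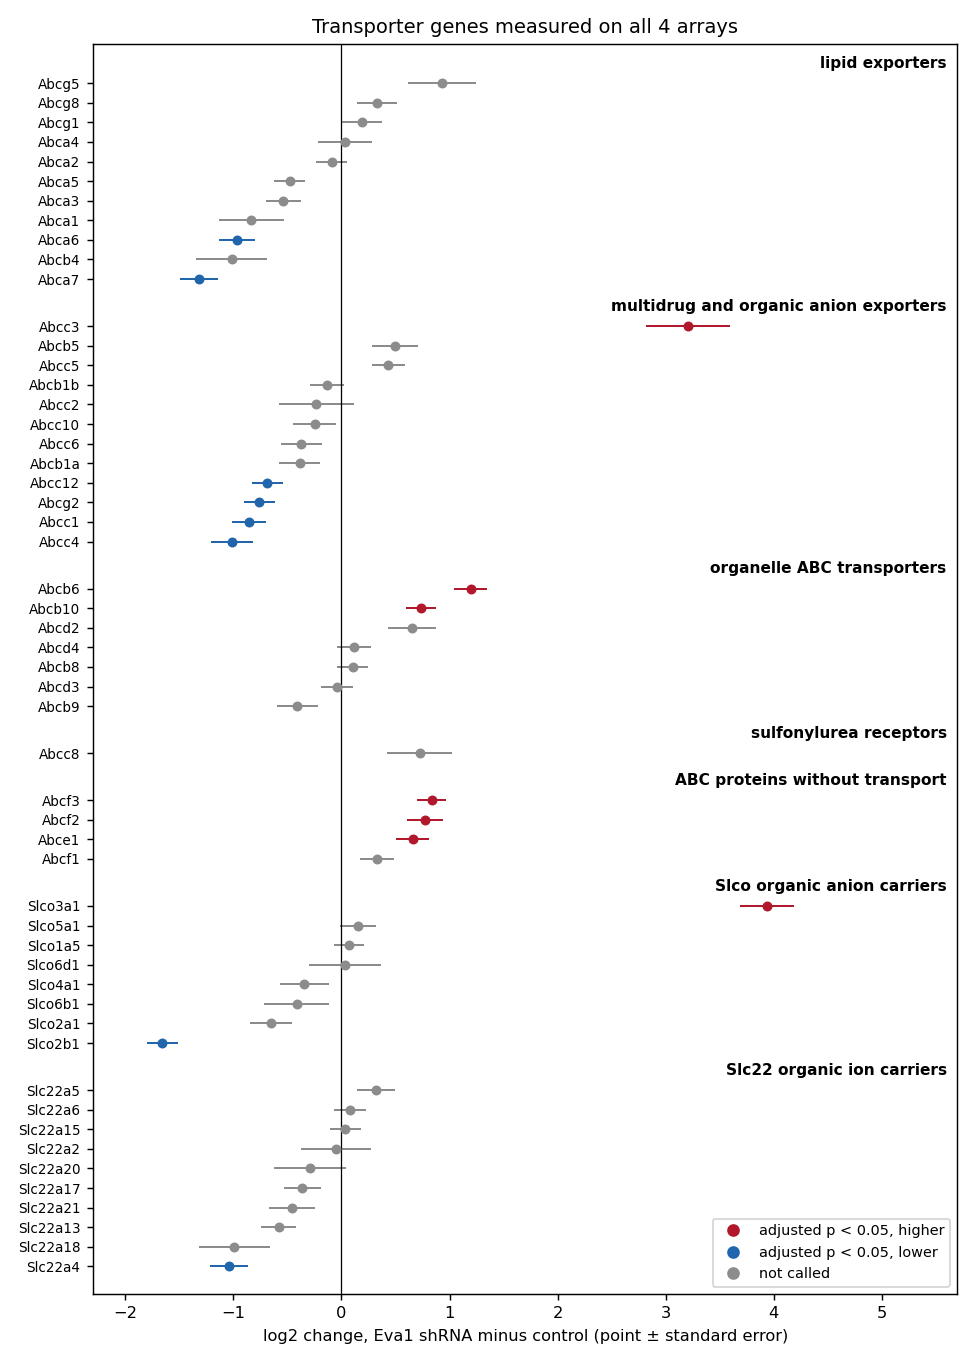
Log2 change (horizontal axis, Eva1 shRNA minus control) of the 53 transporter genes measured on all 4 arrays, by class, with the standard error of the fit as a bar. Red points rose, blue points fell and grey points were not called; Slco3a1 (3.94) and Abcc3 (3.20) lie far to the right of all others.

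Lipid exporters were lower or not called. This class held 20 genes of the ABCA family, the sterol transporters of the ABCG family and Abcb4, of which 11 were tested, 2 fell, 0 rose and 9 were not called. Abca7, a phospholipid exporter also studied for its part in phagocytosis, read 128 and 153 in the control cells and 72.2 and 55.6 in the Eva1 shRNA cells. The groups were apart, with a log2 change of -1.32 ± 0.18 (SE; adjusted p = 0.00665), and the call was kept under all 13 alternatives with adjusted p up to 0.0434. Abca6, a member of the ABCA family less well understood, read 103 and 84.9 against 56.3 and 52.4. Its log2 change was -0.97 ± 0.16 (adjusted p = 0.013); over the alternatives the adjusted p ran from 0.000136 to 0.0741, and the call was lost without Eva1 shRNA array 1 (0.0737) or array 2 (0.0741).

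Abca1, which loads cholesterol and phospholipid onto apolipoproteins, was bright enough to measure but varied within each group. It read 70.8 and 50.5 in the control cells and 49.5 and 29.4 in the Eva1 shRNA cells, so that the higher shRNA value lay just under the lower control value. The change of -0.83 ± 0.30 was not called (adjusted p = 0.0971), although it was called without the dimmest 25% of probes, with 16 intensity units added before log2 (0.0275), with eBayes trend and with the replicate number as a block. Abca5, a neighbour of Abca6 in the genome, read 38.1 and 39.9 against 31.3 and 32.9, a change of -0.48 ± 0.14 that was not called (adjusted p = 0.0611), and Abca3, a lipid transporter best known from lung surfactant, had -0.54 ± 0.16 (adjusted p = 0.0647). Each of these 2 genes was called under 3 alternatives, namely 16 units added, eBayes trend, and the dimmest 25% of probes left out.

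The remaining lipid exporters were dim or level. Abca2, a transporter of myelinating cells, read 25.4 and 26.1 against 30.3 and 25.8, with groups that overlapped after normalization. The sterol transporters Abcg1, Abcg5 and Abcg8 and the retinal transporter Abca4 all read under 5.0 on every array, with changes between 0.03 (Abca4) and 0.93 (Abcg5), none called. Abcb4, which moves phosphatidylcholine into bile, read 4.28 and 2.45 against 1.95 and 1.51 (-1.01 ± 0.33, adjusted p = 0.077). It was called with median centring (0.0436), with the replicate number as a block (0.0323) and without control array 2 (0.0237), and its change was -0.15 with 16 units added.

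Exporters of drugs and organic anions were the class with most falls. Of 14 such genes 12 were tested, 4 fell, 1 rose and 7 were not called. Abcc1, the multidrug resistance protein that exports glutathione conjugates and leukotrienes, read 538 and 552 in the control cells and 379 and 304 in the Eva1 shRNA cells. The groups were well apart and the log2 change was -0.86 ± 0.16 (adjusted p = 0.0161). Over the alternatives its adjusted p ran from 0.000106 to 0.0913, the latter without Eva1 shRNA array 2, and every array left out cost the call (control array 1, 0.058; control array 2, 0.0574; Eva1 shRNA array 1, 0.0547). Abcg2, the breast cancer resistance protein and the dye pump that defines side-population cells, read 526 and 485 against 326 and 343. Its change was -0.76 ± 0.14 (adjusted p = 0.0178, 0.000221 to 0.109 over the alternatives), and the call was kept without control array 2 but lost without control array 1 (0.0679), Eva1 shRNA array 1 (0.109) or array 2 (0.0726).

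Abcc4, which exports cyclic nucleotides and prostaglandins, read 39.8 and 33.1 in the control cells and 19.0 and 22.7 in the Eva1 shRNA cells. Its log2 change was -1.01 ± 0.19 (adjusted p = 0.0186), or -0.64 with 16 units added. Over the alternatives the adjusted p ran from 0.00054 to 0.1, and the call was lost with blank cells filled (0.0625) and on leaving out control array 1 (0.0743) or Eva1 shRNA array 1 (0.1). Abcc12, a relative with a poorly known substrate, was dim at 12.01 and 11.2 against 8.62 and 8.31. It was called at -0.68 ± 0.15 (adjusted p = 0.0256, 0.00447 to 0.128 over the alternatives). That call was lost under the authors' scaling (0.0629), with 16 units added (a change of -0.26, adjusted p = 0.0536) and without control array 1 (0.0878), Eva1 shRNA array 1 (0.128) or array 2 (0.112).

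The member of this class that rose was Abcc3, an exporter of glucuronide conjugates and bile acids. It read 1.44 and 2.03 in the control cells and 23.6 and 11.1 in the Eva1 shRNA cells. The first control value is the lowest of its array, and the higher shRNA value was about 2 times the lower one, yet the groups were far apart. The log2 change was 3.20 ± 0.39 (adjusted p = 0.00519) and the call was kept under the 12 alternatives that tested the gene (it is too dim for the test without the dimmest 25% of probes), with adjusted p up to 0.0441. Its size is not settled, because the control level lies at the floor of the measurement: with 16 units added the change was 0.84.

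The drug efflux pumps Abcb1a and Abcb1b, the mouse counterparts of P-glycoprotein, were not called. Abcb1a read 139 and 111 in the control cells and 102 and 117 in the Eva1 shRNA cells. The deposited ranges overlapped, though the groups were apart after normalization, with a change of -0.39 ± 0.19 (adjusted p = 0.187). Abcb1b was dimmer, at 11.9 and 11.9 against 14.3 and 11.3 (-0.13 ± 0.16, adjusted p = 0.582), and turned to 0.10 under the authors' scaling. The sequences of the probes were not used here, and signal shared between these closely related genes was not tested. Of the rest, Abcc5, an exporter of cyclic nucleotides, read 8.61 and 10.4 against 16.5 and 13.7 (0.43 ± 0.15, adjusted p = 0.0922), and was called under the authors' scaling and without the dimmest 25% of probes. Abcc2, Abcc6, Abcc10 and Abcb5 were between 1.52 and 17.2 on all arrays and were not called.

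**Figure D2:**
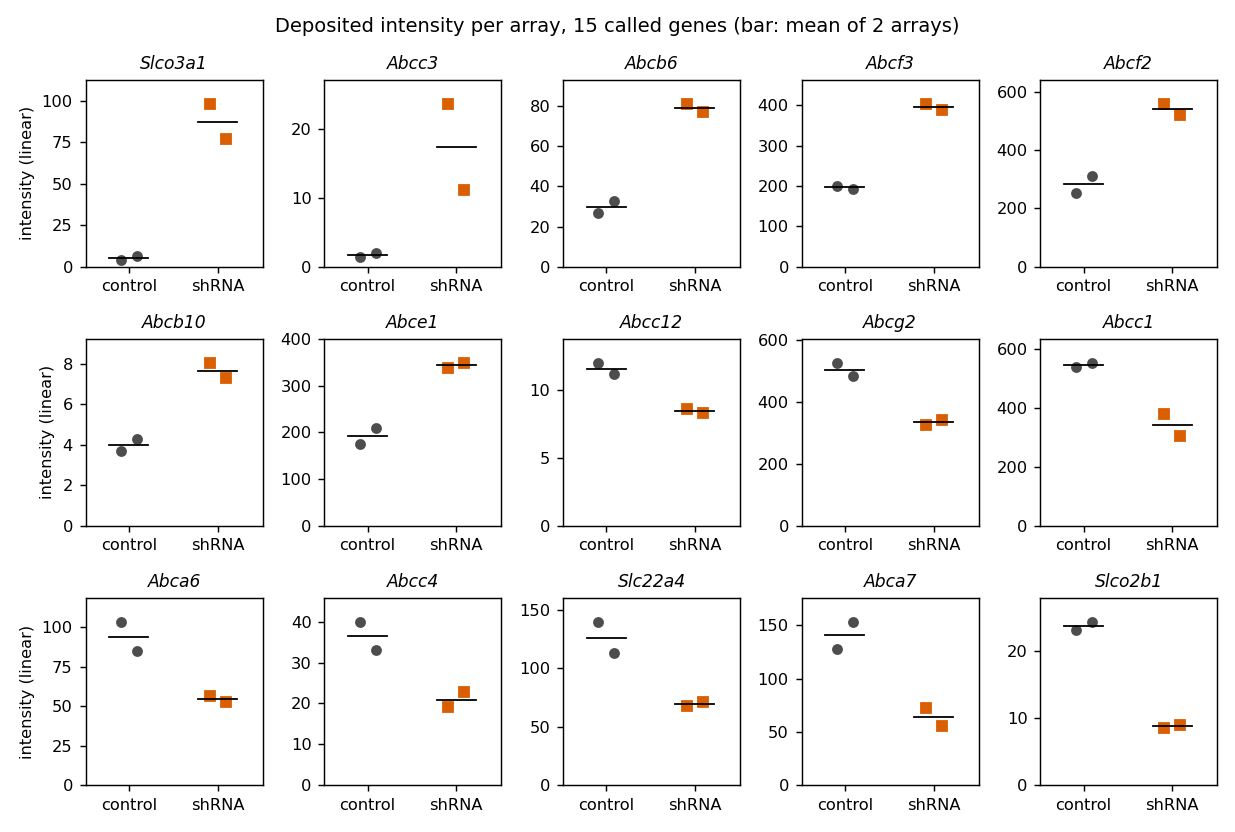
Deposited intensity (vertical axes, linear and starting at 0) of the 15 called transporter genes on each control array (circles) and each Eva1 shRNA array (squares), with the mean of the 2 arrays as a bar. In each panel the 2 groups are apart; the shRNA values of Abcc3, 23.6 and 11.1, lie well apart from each other.

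ABC transporters of organelles rose or were not called. All 7 were tested, and 2 rose, 0 fell and 5 were not called. Abcb6, a porphyrin transporter of mitochondria and other membranes, read 27.0 and 32.9 in the control cells and 81.1 and 76.9 in the Eva1 shRNA cells. The change of 1.20 ± 0.15, or 2.29-fold, was called with all 4 arrays (adjusted p = 0.00588) and under all alternatives, with adjusted p up to 0.046. Abcb10, a mitochondrial protein of heme-forming cells, rose from a much dimmer level, 3.71 and 4.30 against 8.04 and 7.31. Its change was 0.74 ± 0.14 (adjusted p = 0.0175) but only 0.19 with 16 units added (0.139). Over the alternatives its adjusted p ran from 0.0125 to 0.139, and it was also lost with eBayes trend (0.0615) and without control array 1 (0.0653), Eva1 shRNA array 1 (0.103) or array 2 (0.0869).

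Abcd3, which carries branched and dicarboxylic fatty acids into the peroxisome, was bright on every array and was not called. It read 780 and 870 in the control cells and 897 and 848 in the Eva1 shRNA cells (-0.04 ± 0.15, adjusted p = 0.849). Abcd2, its dim relative for very long chain fatty acids, read 4.93 and 3.79 against 7.38 and 8.40 (0.66 ± 0.22, adjusted p = 0.0848), and was called under the authors' scaling. Abcd4, which acts in lysosomal export of cobalamin, the mitochondrial transporter Abcb8 and the lysosomal peptide transporter Abcb9 had changes of 0.12, 0.10 and -0.41 and were not called. The sulfonylurea receptor Abcc8, a subunit of ATP-sensitive potassium channels, read 3.03 and 5.45 against 9.54 and 6.26 and was not called (0.72 ± 0.30, adjusted p = 0.137).

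The ABC proteins that do not transport were bright, and rose or were not called. All 4 were tested, 3 rose, 0 fell and 1 was not called. Abcf3, a partner in translation and antiviral responses, read 201 and 192 in the control cells and 403 and 389 in the Eva1 shRNA cells (0.83 ± 0.14, adjusted p = 0.0119). Abcf2 read 252 and 313 against 558 and 521 (0.77 ± 0.17, adjusted p = 0.0257). Abce1, which splits ribosomes into subunits after termination, read 176 and 209 against 338 and 348 (0.66 ± 0.15, adjusted p = 0.0324). Abcf1, which binds the initiation factor eIF2, moved least, from 244 and 292 to 402 and 358 (0.33 ± 0.16, adjusted p = 0.191). The control and shRNA values were apart in all 4 genes, while the change of Abcf1 was about 2 standard errors. Groups were also apart in 37 of all 53 tested transporter genes, many of them not called. The share over all genes was not counted, so groups being apart carries no weight by itself.

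These calls lie near the threshold. Abcf3 was lost without Eva1 shRNA array 1 (adjusted p = 0.0754) or array 2 (0.0717), in a range from 9.32e-05 to 0.0754 over the alternatives. Abcf2 was lost with blank cells filled (0.061) and on leaving out control array 1 (0.081), Eva1 shRNA array 1 (0.124) or array 2 (0.109), in a range from 0.000371. Abce1 was lost when blanks were filled (0.0587). It was also lost on leaving out control array 1 (0.105), control array 2 (0.0506), Eva1 shRNA array 1 (0.121) or Eva1 shRNA array 2 (0.151), in a range from 0.00121. The direction of all 3 was the same throughout.

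Slco carriers held the largest rise and the largest fall among the tested genes. Of 14 Slco genes 8 were tested, 1 rose, 1 fell and 6 were not called. Slco3a1, a broadly expressed carrier of prostaglandins and thyroid hormone, read 3.79 and 6.37 in the control cells and 97.9 and 77.0 in the Eva1 shRNA cells. The groups were far apart in deposited intensity, and the log2 change was 3.94 ± 0.25 (adjusted p = 0.00116). The call was kept under all alternatives, with adjusted p up to 0.0214, but the control values are dim and the change was 2.18 with 16 units added. Slco2b1, a carrier of steroid sulfates, read 23.2 and 24.3 in the control cells and 8.54 and 8.95 in the Eva1 shRNA cells. Its change of -1.66 ± 0.14, a 3.15-fold fall, was called with all 4 arrays (adjusted p = 0.00226) and under all alternatives (up to 0.025), and was -0.78 with 16 units added.

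The other tested Slco genes were not called. Slco2a1, the prostaglandin uptake carrier, read 10.1 and 11.5 against 7.04 and 9.18 (-0.65 ± 0.19, adjusted p = 0.0614), and was called without the dimmest 25% of probes. Slco4a1, a thyroid hormone carrier, read 59.8 and 58.7 against 44.3 and 64.4, and the Eva1 shRNA arrays straddled the control values (-0.34 ± 0.23, adjusted p = 0.318). Slco1a5 read between 28.5 and 35.1 on the 4 arrays, with a change of 0.07 ± 0.14. Slco5a1, Slco6b1 and Slco6d1 read at most 6.87 on every array.

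Slc22 carriers were mostly dim, with a single fall. Of 15 Slc22 genes 10 were tested, 1 fell, 0 rose and 9 were not called. Slc22a4, a carrier of ergothioneine and carnitine, read 139 and 113 in the control cells and 67.7 and 71.1 in the Eva1 shRNA cells. The log2 change was -1.04 ± 0.17 (adjusted p = 0.012, 6.44e-05 to 0.0772 over the alternatives), and the call was lost without Eva1 shRNA array 1 (0.0772) or array 2 (0.0561). In the mouse genome Slc22a4, Slc22a21 and Slc22a5 stand side by side in that order. Their changes ran from -1.04 over -0.46 ± 0.21 for Slc22a21 (18.7 and 22.2 against 14.9 and 19.8) to 0.32 ± 0.18 for Slc22a5, the main carnitine carrier (10.8 and 13.1 against 19.9 and 15.01). Neither neighbour was called, and the differences between the 3 genes were not tested.

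Slc22a13, a urate and nicotinate carrier, read 38.8 and 35.4 against 27.0 and 29.8 and stood at the threshold (-0.58 ± 0.16, adjusted p = 0.0503). It was called with median centring (0.0481), eBayes trend (0.0138), 16 units added (0.0157) and the dimmest 25% of probes left out (0.0132). Slc22a18, an imprinted gene with an uncertain substrate, read 4.46 and 3.39 against 1.56 and 2.85 (-0.99 ± 0.33, adjusted p = 0.0797). Slc22a15 read 28.3 and 28.5 against 32.8 and 34.2 (0.04 ± 0.14). Slc22a2, Slc22a6, Slc22a17 and Slc22a20 read at most 7.86 on every array and were not called.

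**Figure D3:**
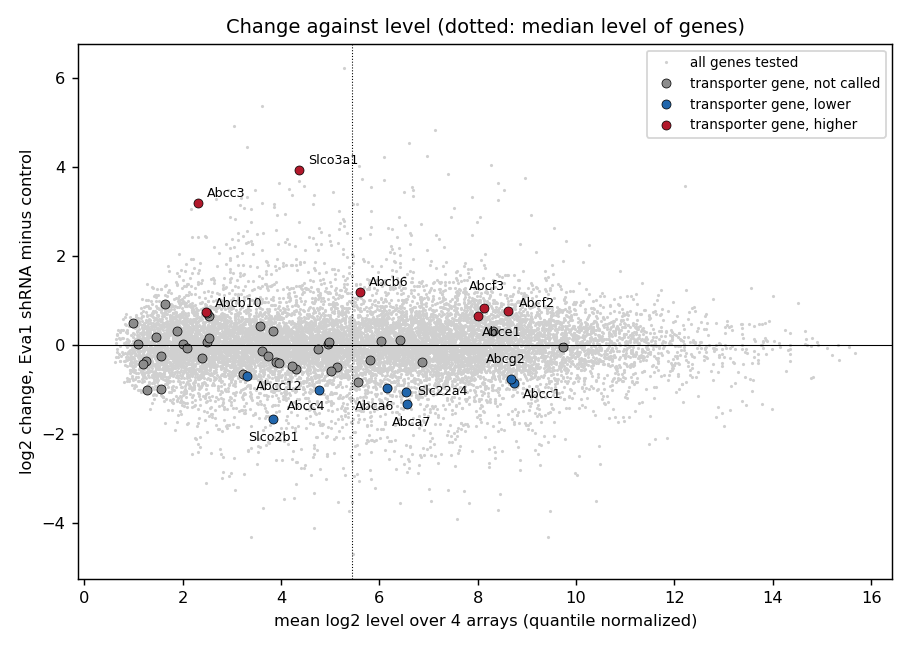
Log2 change (vertical axis, Eva1 shRNA minus control) against mean log2 level over the 4 arrays (horizontal axis), with all 13765 genes tested in grey, the 53 transporter genes in colour and the median level of genes, 5.45, as a dotted line. Of the transporter genes right of the line 9 of 16 were called, and left of it 6 of 37.

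Most transporter genes were dim. Of the 53 tested, 16 lay above the median level of all genes, and of these 4 rose and 5 fell. Of the 37 at or below the median level 3 rose and 3 fell. Over all genes 31.3% were called above the median level and 20.6% at or below it, so calls were more frequent among bright genes in general. Among the transporters these shares were 56.25% of 16 and 16.2% of 37, and their difference from all genes was not tested. Levels of different probes are not compared with each other here beyond this split.

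**Figure D4:**
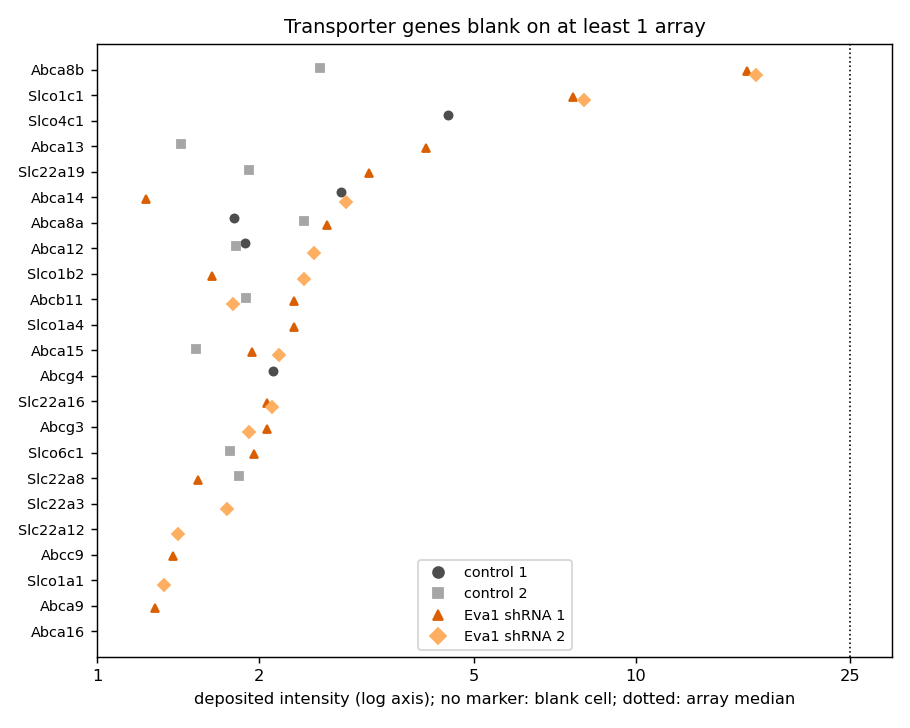
Deposited intensity (horizontal axis, log scale) of the 23 transporter genes blank on at least 1 array, with a marker for each array that had a value and the array median of 25 dotted. Abca8b and Slco1c1 stand out on both Eva1 shRNA arrays; all other values are under 5.0.

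The 23 genes that were not tested were near the floor, with 2 exceptions. Abca8b, a lipid transporter next to Abca8a, was blank on control array 1 and read 2.59 on control array 2, but 16.1 and 16.8 on the Eva1 shRNA arrays. Slco1c1, the thyroxine carrier of brain barriers and astrocytes, was blank on both control arrays and read 7.66 and 8.003 on the Eva1 shRNA arrays. With blank cells filled with the lowest value of the array, Abca8b had a log2 change of 3.01 and Slco1c1 of 2.45, sizes that depend on the fill. Standard errors and p-values are not given for them, because the spread between control arrays was not measured. Abca9 and Abca8a, which lie between Abca8b and Abca6 in the genome, read at most 2.67 where they had a value. The other untested genes included the carriers Slc22a3, Slc22a8 and Slc22a12, the potassium channel subunit Abcc9, the bile salt pump Abcb11 and the Slco1 genes Slco1a1, Slco1a4 and Slco1b2. The highest value among the 21 genes other than Abca8b and Slco1c1 was 4.48, for Slco4c1 on control array 1.

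**Figure D5:**
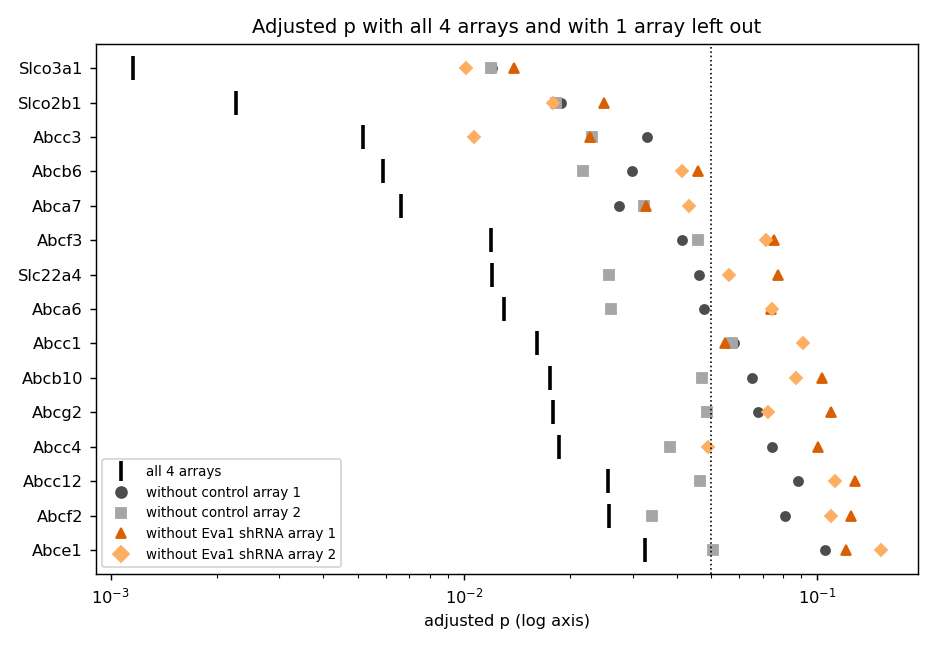
Adjusted p (horizontal axis, log scale) of the 15 called transporter genes in the fit of all 4 arrays (bars) and with each array left out in turn (symbols), with 0.05 dotted. Slco3a1, Slco2b1, Abcc3, Abcb6 and Abca7 stay left of the line in all 4 cases; each of the other 10 crosses it in at least 1.

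Many calls were lost when an array was left out, among the transporters and over all genes (counts below). Such a fit has 1 array in a group, so the losses are not read as a trait of these genes. Of the 15 called genes, 5 were called whichever array was left out and under each other alternative that tested them, namely Slco3a1, Slco2b1, Abcc3, Abcb6 and Abca7. The other 10 lost the call without at least 1 array, and 0 of the 15 changed direction under any of the 13 alternatives. Adding 16 units shrank the change of 6 of them by a factor above 1.5.

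Promoter sequences are shown for 2 genes that fell and 2 of the non-transporting ABC genes that rose together, to set their upstream sequence beside the results. RefSeq promoters of GRCm38.p6 matched 63 of the 76 genes and 11 of the 15 called ones, the exceptions being Slco3a1, Abcc1, Abcc3 and Abca6. Each line gives the 250 bases before an annotated start, 5′ to 3′ on the gene's strand. Capitals mark matches on either strand to the E-box CACGTG, bound by basic helix-loop-helix factors, to ACGTG, the core of the hypoxia response element, which every CACGTG also holds, or to TGACNNNGC, the core of the antioxidant response element.
Slc22a4, chr11:54028105-54028354, minus strand: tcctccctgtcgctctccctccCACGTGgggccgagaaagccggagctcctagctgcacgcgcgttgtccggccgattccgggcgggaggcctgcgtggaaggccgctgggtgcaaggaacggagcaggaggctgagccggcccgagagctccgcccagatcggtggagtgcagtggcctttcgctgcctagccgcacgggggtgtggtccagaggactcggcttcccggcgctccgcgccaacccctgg
Abcc4, chr14:118706220-118706469, minus strand: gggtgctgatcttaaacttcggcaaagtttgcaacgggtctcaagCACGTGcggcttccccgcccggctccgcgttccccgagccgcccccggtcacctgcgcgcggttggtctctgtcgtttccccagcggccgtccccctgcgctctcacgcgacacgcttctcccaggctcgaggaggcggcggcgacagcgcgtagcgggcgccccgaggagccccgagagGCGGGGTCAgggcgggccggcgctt
Abce1, chr8:79711741-79711990, minus strand: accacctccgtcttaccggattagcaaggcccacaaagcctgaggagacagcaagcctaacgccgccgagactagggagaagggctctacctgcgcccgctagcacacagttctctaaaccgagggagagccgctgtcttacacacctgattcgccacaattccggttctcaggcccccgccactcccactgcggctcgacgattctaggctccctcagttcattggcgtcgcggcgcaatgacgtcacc
Abcf3, chr16:20548353-20548602, plus strand: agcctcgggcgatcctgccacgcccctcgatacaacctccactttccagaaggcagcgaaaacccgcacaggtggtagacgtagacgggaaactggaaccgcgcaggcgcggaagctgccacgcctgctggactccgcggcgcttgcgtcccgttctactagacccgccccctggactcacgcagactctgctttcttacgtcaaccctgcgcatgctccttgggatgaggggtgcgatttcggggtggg

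The windows of Slc22a4 and Abcc4 each held 1 CACGTG, and that of Abcc4 also held 1 TGACNNNGC on the opposite strand. The windows of Abce1 and Abcf3 held none of the 3 motifs, nor did the 6 windows of all 5 genes with a promoter that rose. Of the 11 windows of the 6 genes that fell, 2 held CACGTG and 2 held TGACNNNGC, both of the latter at Abcc4. The 2 windows with CACGTG are the 2 shown above, so these do not stand for the genes that fell. The other Abcc4 window, not shown, held no CACGTG. Among 32851 promoter windows of the same length 6.02% held CACGTG, 16.6% ACGTG and 10.2% TGACNNNGC, and among the 74 windows of transporter genes 9.46%, 14.9% and 10.8%. A match is a description of letters and not a binding site.

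Genes that work with these transporters were counted by list. Of 19 tested genes of xenobiotic sensing and glutathione conjugation, 8 rose, 3 fell and 8 were not called, with a median change of 0.48. Over all genes 12.5% rose and 13.5% fell, which is the background for each list here, and 3 of the 11 calls were kept whichever array was left out. Glutathione conjugates are substrates of Abcc1. The 3 with the smallest p were Mgst1 (1.66) and Gsta4 (1.30), which conjugate glutathione, and Gclc (1.08), the subunit that makes its precursor. The transferase Gstm1 (1.11) also rose, while the transferase Gstp1 fell (-0.71). Mgst1 and Gsta4 kept the call with each array left out, and Gclc lost it without Eva1 shRNA array 1 (adjusted p = 0.05). Of 15 tested genes of sterol efflux and liver X receptor signalling, 2 rose, 4 fell and 9 were not called (median -0.01). The lysosomal cholesterol exporters Npc1 (-2.18) and Npc2 (-1.05) and the cholesteryl ester hydrolase Nceh1 (-1.76) fell; Npc2 was lost without Eva1 shRNA array 1 (adjusted p = 0.0515).

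Prostaglandin genes, which bear on Abcc4, Slco2a1 and Slco3a1 as carriers, numbered 10 tested, of which 1 rose, 4 fell and 5 were not called (median -0.20). Ptges, the inducible prostaglandin E synthase, fell by 1.87 on the log2 scale and the receptor gene Ptgfr by 1.00, while the cyclooxygenase gene Ptgs1 rose by 0.92. Ptgfr was lost without Eva1 shRNA array 1 (adjusted p = 0.0848) or array 2 (0.067), and Ptgs1 without control array 2 (0.0506), Eva1 shRNA array 1 (0.0682) or array 2 (0.0844). Of 8 tested carnitine genes 2 fell, Cpt1c (-1.16) and Slc25a20 (-0.76), and 0 rose (median -0.34). Slc25a20 was lost whichever array was left out, with adjusted p up to 0.156.

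Of 13 tested heme and iron-sulfur genes, which work with Abcb6 and Abcb10, 0 rose, 1 fell and 12 were not called (median -0.17). The fall was Alas1 (-0.81), the first enzyme of heme synthesis, and it was lost without control array 1 (adjusted p = 0.0525), Eva1 shRNA array 1 (0.0809) or array 2 (0.0748). Of 6 tested partners of translation termination and recycling 1 rose, Gspt1 (0.75), which was lost without control array 2 (0.0674), Eva1 shRNA array 1 (0.0965) or array 2 (0.111); the median was 0.13. Of 10 tested peroxisome genes 1 rose, Phyh (0.49), lost whichever array was left out with adjusted p up to 0.188. The ABC family members that carry other names, Tap1, Tap2 and Cftr, had changes of -0.21, 0.61 and 0.48, of which Tap2 was called (adjusted p = 0.0457) and lost whichever array was left out (up to 0.214). None of 3 PDZ scaffold genes, and not the potassium channel pore Kcnj8, were called.

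The rule passed over 3 family members whose probes carry clone names in the annotation. Their current symbols are Slc22a23, Slc22a30 and Slc47a1, and they were not counted above. Slc22a23 read 1113 and 952 in the control cells and 515 and 557 in the Eva1 shRNA cells (-1.11 ± 0.16, adjusted p = 0.00796), and was lost without Eva1 shRNA array 1 (0.059). Slc22a30 read 3.40 and 3.84 against 21.4 and 21.5 (2.37 ± 0.14, adjusted p = 0.00105), or 0.86 with 16 units added. Slc47a1, a drug and cation antiporter, read 4.52 and 3.89 against 2.90 and 2.09 (-0.93 ± 0.20, adjusted p = 0.0257), was -0.16 with 16 units added (0.223) and was lost without control array 1 (0.0938), Eva1 shRNA array 1 (0.0649) or array 2 (0.123).

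Markers of the labelled cell type and of other brain cells were read in 8 lists. The neural stem markers Nes (532, 537, 435 and 430 on the 4 arrays) and Vim were bright and not called. Nes had a change of -0.47, near the threshold (adjusted p = 0.0558), and Vim one of 0.33 (0.239). Of 5 tested members of that list 1 fell, Fabp7 (22.1 and 24.6 against 12.3 and 12.2, -1.15), and the median was -0.31. Sox2 had no named probe, and Prom1, blank on control array 1, read 3.25 on control array 2 and 11.8 and 9.76 on the Eva1 shRNA arrays. Of 3 tested astrocyte markers Aldoc fell (-1.92), and Aldh1l1 and S100b were not called. The summed level went from 634 and 692 in the control cells to 264 and 182 in the Eva1 shRNA cells. Most of it was Aldoc (604 and 663 against 232 and 152), and Gfap was blank on 2 arrays. Of 6 tested oligodendrocyte lineage markers Pdgfra (-1.66) and Cnp (-1.06) fell, 4 were not called, and the median was -0.43. Their sum went from 219 and 212 to 135 and 139. Of 5 tested neuronal markers Tubb3 rose (0.84), 4 were not called, and the median was 0.05. The neuronal sum went from 73.9 and 73.3 to 105 and 123. Most of that rise lay in Tubb3 (29.0 and 29.5 against 50.4 and 71.2).

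The sums of the other lists followed single genes too, as with Aldoc and Tubb3. Of 3 tested endothelial markers Flt1 fell (542 and 546 against 148 and 147) and made up most of the sum of 558 to 560 against 168 to 169, whereas Emcn rose (0.76), the median was 0.14, and Pecam1, Cdh5, Tek and Cldn5 were blank on at least 1 array. Of 7 tested mural and fibroblast markers 3 rose and 1 fell with a median of -0.15, and the rise of the sum from 206 and 218 to 464 and 617 lay in Acta2 (4.04 and 4.38 against 408 and 316). Of 5 tested microglial markers Cd68 fell (181 and 148 against 77.3 and 89.3), as did the sum, from 215 and 244 to 162 and 168. Csf1r (0.25) and Cx3cr1 (0.54) were not called, the median was -0.09, and Itgam was blank on both Eva1 shRNA arrays. Of 2 tested choroid plexus markers Aqp1 rose, and their sum went from 91.4 and 105 to 552 and 636. The part of these markers in the transporter results was not tested.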

How the data were processed

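Per the labels, total RNA of 2 control and 2 Eva1 shRNA samples was amplified, labelled with Cy5 and hybridised to a 1-colour 3D-Gene mouse chip. The authors deposited linear intensity values, scaled to a median near 25 on each array as the values show; the background correction and the rule that left 6.95% to 12.0% of probes blank are not named in labels or headers. Probes were named from the platform annotation, updated through RefSeq GRCm38.p6 synonyms. Log2 intensities of the 19199 probes with a value on all arrays were quantile normalized, the brightest probe of each of 13765 genes was kept, and groups were compared with limma 3.58.1 in R 4.3.3 (lmFit, eBayes, two-sided, Benjamini-Hochberg over genes). Across probes, replicates correlated at r = 0.991 and 0.993, and arrays of different groups at 0.964 to 0.970.

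Results were recomputed with each array left out, with values as the authors scaled them, with arrays centred on their medians, with 16 units added to each intensity, and after removal of the dimmest 25% of probes. Further fits filled blanks with the array's lowest value, used eBayes trend, averaged the probes of a gene, tested each probe, or took replicate number as a block. The members and lists were chosen with earlier results of these data known. All 76 members could be named, as could up to 3 genes of each related list with the smallest p; others were named after their values were seen. On simulated data for Eva1 shRNA against control with 13765 genes, 2 of 67 genes changed 1.5-fold, 42 of 67 changed 2-fold and 66 of 66 changed 4-fold were recovered, with 3 false calls. The simulation had 113 calls in all, against 3576 in the data, so the same p had a higher adjusted p in the simulation. Its recovered counts therefore do not carry over to these data. Figures were drawn with matplotlib 3.10.9.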

Additional observations from a re-analysis of the deposited data

Results flagged for a closer look

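A total of 6 transporter genes that could not be tested, because a control cell was blank, had values on both Eva1 shRNA arrays above the control values, or above the lowest value of a blank control array. Abca8b averaged 16.4 and Slco1c1 7.83 on the Eva1 shRNA arrays. Abca15 averaged 2.06, Abcg3 1.99, Slc22a16 2.09 and Slco1b2 2.02, all close to the lowest values of the arrays (1.19 to 1.44). The list looked only for higher values with the hairpin, and the share over all genes was not counted. Transporter probes were blank more often on the control arrays (18 and 14) than on the Eva1 shRNA arrays (7 and 11). That difference favours such a count, so the number of genes listed carries no weight by itself.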

How the results depend on the processing

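The counts of transporter genes, 7 higher and 8 lower, stayed within 1.5 times under the 9 alternatives that keep all arrays, except that 13 fell without the dimmest 25% of probes, where 34 were tested. With each array left out in turn, 3 to 7 rose, 2 to 8 fell, and 1206 to 2402 genes were called in all against 3576. Under the authors' scaling the median change of all genes was 0.18 in place of -0.01, and 67.7% of all calls were higher in place of 48.1%; for the transporters 9 rose and 7 fell. The same counts of 9 and 7 came with blank cells filled, when all 76 were tested, but not for the same genes. Abca8b, Slco1c1, Abcg3 and Slc22a16, which have blanks and are tested through the fill alone, were added to the rises. Their calls rest on filled control values, whose spread was not measured. Abce1, Abcf2 and Abcc4 lost the call. Abcg3 and Slc22a16 read about 2 units. With eBayes trend 6 rose and 12 fell. With the replicate block 7 rose and 10 fell, and 3102 genes were called in all; the labels give only a shared number, and the deviations of same-numbered arrays correlated at -0.01 across probes.

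Over 670 values of single transporter genes under the alternatives, 592 kept their direction and side of the threshold, 35 lost and 23 gained the call, and 20 changed sign, all for genes that were not called. Under the authors' scaling these were Abca2 (0.12), Slc22a2 (0.14), Abcb1b (0.095) and Abcd3 (0.083). Slco6d1 was -0.082 with median centring, -0.0047 with 16 units added and -0.089 with blanks filled. With each array left out in turn, Abca4 ran from -0.31 to 0.37, Slc22a2 from -0.50 to 0.39, Abcd4 from -0.012 to 0.25, Abcc2 from -0.74 to 0.28, Abcg1 from -0.014 to 0.39 and Slco6d1 from -0.46 to 0.52. Abcd3 ran from -0.14 to 0.053, Slc22a20 from -0.79 to 0.21, Slco6b1 from -0.86 to 0.031, Slc22a6 from -0.036 to 0.19 and Slc22a15 from -0.035 to 0.11. The cause was not tested. Signal near the floor limits the size of changes for dim genes such as Abcc3 and Abcb10.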
